A study of Saccharomyces pastorianus with 12 samples.

Results

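The mitochondrial protein import machinery was followed through a brewery propagation of lager yeast by the signals of 32 nuclear genes. The members were chosen by name: a probe set belonged if the platform annotation gave it one of 32 listed TOM, TIM, PAM, SAM, MAS, MIA40 or ERV1 symbols of Saccharomyces cerevisiae. Each of the 32 genes had exactly 1 probe set, and all 32 were among the 5503 genes that were bright enough to test, of 5635 S. cerevisiae genes with a probe set. The samples were total RNA of Saccharomyces pastorianus strain CB11 on 12 single-colour Affymetrix arrays. Cells had first been grown aerobically in an 8 hl vessel, and were then moved to a 140 hl vessel. Samples were taken there right after inoculation (0h) and 4h, 8h and 30h later, 3 a time, called A, B and C. Strain and wort were shared by every sample: the wort, made from 80% malt with 20% maltose, had a gravity of 17° Plato, was kept at 20 °C and at 7 to 8 mg/l dissolved oxygen, and contained 0.5 mg/l added zinc. Nothing in the labels says that the samples of a time came from separate propagations, so each p-value below measures the spread between samples that may be technical.

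Nearly all mitochondrial proteins are encoded in the nucleus, made in the cytosol and imported. In S. cerevisiae they enter through the TOM complex of the outer membrane and are then sorted. The SAM complex builds barrel proteins into the outer membrane, and the small TIM proteins and the TIM22 complex deliver carrier proteins to the inner membrane. The TIM23 complex with its motor pulls proteins with a presequence into the matrix, and the MIA pathway folds small proteins of the intermembrane space with disulfide bonds. Budding yeast growing on abundant fermentable sugar represses many respiratory genes, while import itself is needed for viability on any carbon source, and several members, among them TOM40, TIM23, SAM50, MIA40 and both MAS genes, are essential.

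The 6 arrays at 8h and 30h, called late below, differed as a whole from the 6 early ones at 0h and 4h. The median deposited signal over the tested genes lay between 31.5 and 75.9 on the late arrays and between 96.3 and 421 on the early ones, and the SD of log2 signals was 1.21 to 1.33 late and 1.91 to 2.03 early. The values below are therefore normalised signals, scaled so that every array has the same distribution over the 5503 genes (quantile normalisation). They show a gene's place among the other genes of its array and no amount per cell. In such bulk samples fewer cells with a transcript and less transcript per cell cannot be told apart. The ratio of 3′ to 5′ signals, a measure of RNA integrity taken as the median over 8 control genes, reached 35.5 on the array 0h A, and 6.96 for 0h C, against 1.30 to 2.02 on the other 10 arrays. Probe sets of the fission yeast Schizosaccharomyces pombe on the same arrays gave the background, as the 95th percentile of their signals: 27 to 32 of the 32 members were above it on each array, whereas 0 to 2 of 21 S. pombe probe sets that carry a member's symbol were.

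Import genes were on the whole lower late in the propagation. At 8h, 22 of the 32 members were lower than at 4h and 2 were higher (limma, Benjamini-Hochberg adjusted p under 0.05 over 5503 genes, two-sided), where 33.9% of all tested genes were called lower and 30.7% higher. The median log2 change of the members was -1.24, against -0.12 over all tested genes. At 4h against 0h, 5 members rose and 1 fell, where 11.8% of all genes rose and 11.8% fell, with a median change of 0.57 for the members and 0.02 for all genes. Without 0h A these medians were 0.255 and 0.058. When any 1 of the 4h arrays was left out no member was called higher. Without both 0h A and 0h C, which leaves 1 array at 0h, the 5 rises were 0.525 to 0.848. At 30h against 8h no member rose and 2 fell, where 0.909% of all genes rose and 2.73% fell. The medians were -0.15 and 0.02. Over the whole propagation, 30h against 0h, 4 members rose and 19 fell, with 31.2% and 33.3% called among all genes, and the medians were -1.19 and -0.11. This last comparison shares its arrays with the others and is no separate evidence. A difference of any kind between the 4 times was called for 26 members, against 78.4% of all genes; MAS2, SAM37, TIM10, TIM21, TIM22 and TOM22 were not called.

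**Figure D1:**
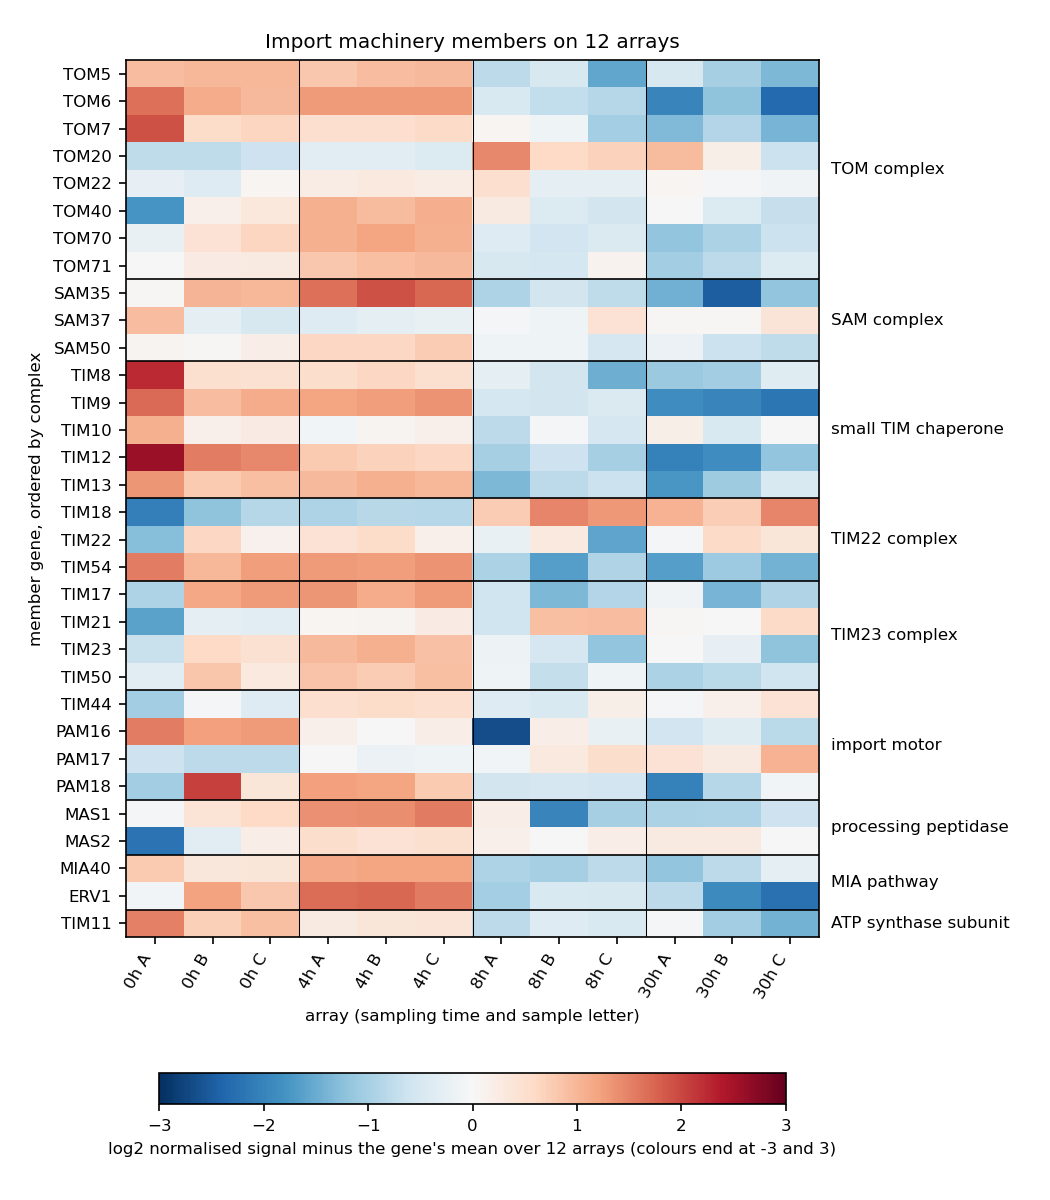
Each row is a member gene, grouped by complex, and each column an array in order of time; colour gives the log2 normalised signal minus the gene's mean over the 12 arrays. Most rows are red at 0h and 4h and blue at 8h and 30h, TIM18 runs the other way, and 0h A departs from 0h B and 0h C in both directions.

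The arrays themselves divide in the same way as the signals at 8h against 4h and at 30h against 0h, in brightness and in range, so a change of the genes and a change between the arrays cannot be told apart there for any single gene. Without any normalisation the median of all tested genes moved by -1.17 at 4h against 0h, -1.28 at 8h against 4h, 0.58 at 30h against 8h and -1.86 at 30h against 0h. Centring each array on its median takes such a shift out and was run as an alternative. Over the 19 alternatives run, 17 to 28 members were called lower at 8h against 4h and 16 to 27 at 30h against 0h. Over all genes in the same fits, 1621 to 2842 were called lower at 8h against 4h and 1601 to 3635 at 30h against 0h. Both highest counts of all genes came without normalisation. In the main fit they were 1863 and 1830 of 5503. The rises depended more on the scaling, as given gene by gene below.

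The TOM complex supplies 8 members. At 8h against 4h, 6 of the 8 fell and 1 rose, beside 33.9% and 30.7% of all tested genes. At 4h against 0h, 3 rose and none fell, beside 11.8% of all tested genes each way. TOM40 forms the pore of the outer membrane through which almost all precursors pass. Its normalised signal was 67.1, 253 and 286 on the 0h arrays, 482, 442 and 488 on the 4h arrays, 277, 171 and 157 on the 8h arrays, and 226, 174 and 142 on the 30h arrays. The 4h arrays stood above all others, and 0h A was the lowest of the 12. TOM40 rose by a log2 change of 1.47 ± 0.44 at 4h against 0h (SE, n = 3 arrays a time, limma adjusted p = 0.0274) and fell by 1.27 ± 0.44 at 8h against 4h (limma adjusted p = 0.0209). The rise was 0.78 without 0h A, and its call was lost when any 1 of the 4h arrays was left out (adjusted p 0.0693 to 0.0795). The call of the fall was lost when 4h A, 4h C, 8h B or 8h C was left out (adjusted p 0.0525 to 0.0745), and with arrays centred on their median the fall was larger, at -2.17 (adjusted p = 0.00214).

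The receptors of the TOM complex did not move as a group. TOM70, the receptor for carrier precursors that arrive with cytosolic chaperones, had signals of 148, 234 and 273 on the 0h arrays, 362, 397 and 364 on the 4h arrays, 132, 116 and 129 on the 8h arrays, and 76.8, 90.7 and 111 on the 30h arrays. Every late array was below every early one. TOM70 changed by 0.82 ± 0.25 at 4h against 0h (limma adjusted p = 0.0308), by -1.58 ± 0.25 at 8h against 4h (adjusted p = 9.57e-05) and by -1.20 ± 0.25 at 30h against 0h (adjusted p = 0.000826). The first of these was lost when any 1 of the 4h arrays was left out (adjusted p 0.0883 to 0.115). TOM71, a paralogue of TOM70, was called in the same 3 comparisons with changes of 0.73, -1.21 and -0.92. Its rise at 4h was lost when any 1 of the 0h or 4h arrays or 30h B was left out (adjusted p 0.0578 to 0.148).

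TOM20, the receptor that binds presequences, went the opposite way. It had 229, 225 and 251 on the 0h arrays, 303, 305 and 289.7 on the 4h arrays, 1049.8, 579.6 and 624 on the 8h arrays, and 748, 434 and 248 on the 30h arrays. All 8h arrays were above all early ones, while 30h C lay below 0h C. TOM20 rose by 1.28 ± 0.34 at 8h against 4h (limma adjusted p = 0.00457) and by 0.88 ± 0.34 at 30h against 0h (limma adjusted p = 0.0347). Both rises depended on the scaling: with arrays centred on their median they were 0.08 and 0.06, and not called. The rise at 30h was also lost without 0h B, 0h C, 30h A or 30h B (adjusted p 0.0564 to 0.181), and was 0.49 without 30h A and 1.32 without 30h C. TOM22, the central receptor that links the others to the pore, had 231, 209 and 283 on the 0h arrays, 319.9, 333 and 319 on the 4h arrays, 389.6, 226 and 223 on the 8h arrays, and 282, 264 and 253 on the 30h arrays, and was called in none of the comparisons after quantile normalisation. Its change at 8h against 4h was -0.26. With arrays centred on their median that change was -1.12 and called (adjusted p = 0.000623), as it was without 8h A, at -0.54 (adjusted p = 0.0468).

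The small subunits TOM5, TOM6 and TOM7, which shape and stabilise the pore, all fell, with every late array below every early one. TOM6 had 615, 422 and 384 on the 0h arrays, 469, 472 and 473 on the 4h arrays, 141, 116 and 108 on the 8h arrays, and 49.5, 84.5 and 38.9 on the 30h arrays. Its signal dropped in 2 steps: -1.96 ± 0.29 at 8h against 4h (limma adjusted p = 4.38e-05) and -1.15 ± 0.29 at 30h against 8h (limma adjusted p = 0.0407). The second step is weakly held, being lost in 8 of the 12 fits that each left out 1 array (any 4h or 8h array, 30h A or 30h C; adjusted p 0.0685 to 0.142) and with arrays centred on their median (-0.92, adjusted p = 0.272). TOM5 ranged over 43.5 to 92.0 on the late arrays and 223 to 256 on the early ones, and fell by 1.84 at 8h against 4h. TOM7 ranged over 107 to 292 late and 394 to 1059 early, with its highest value on 0h A. It fell by 0.90 at 8h against 4h, a call lost when any 1 of the 4h arrays, 8h B, 8h C or 30h A was left out (adjusted p 0.0503 to 0.189), and it was -0.58 without 8h C. With arrays centred on their median it was -1.79 (adjusted p = 0.00538).

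**Figure D2:**
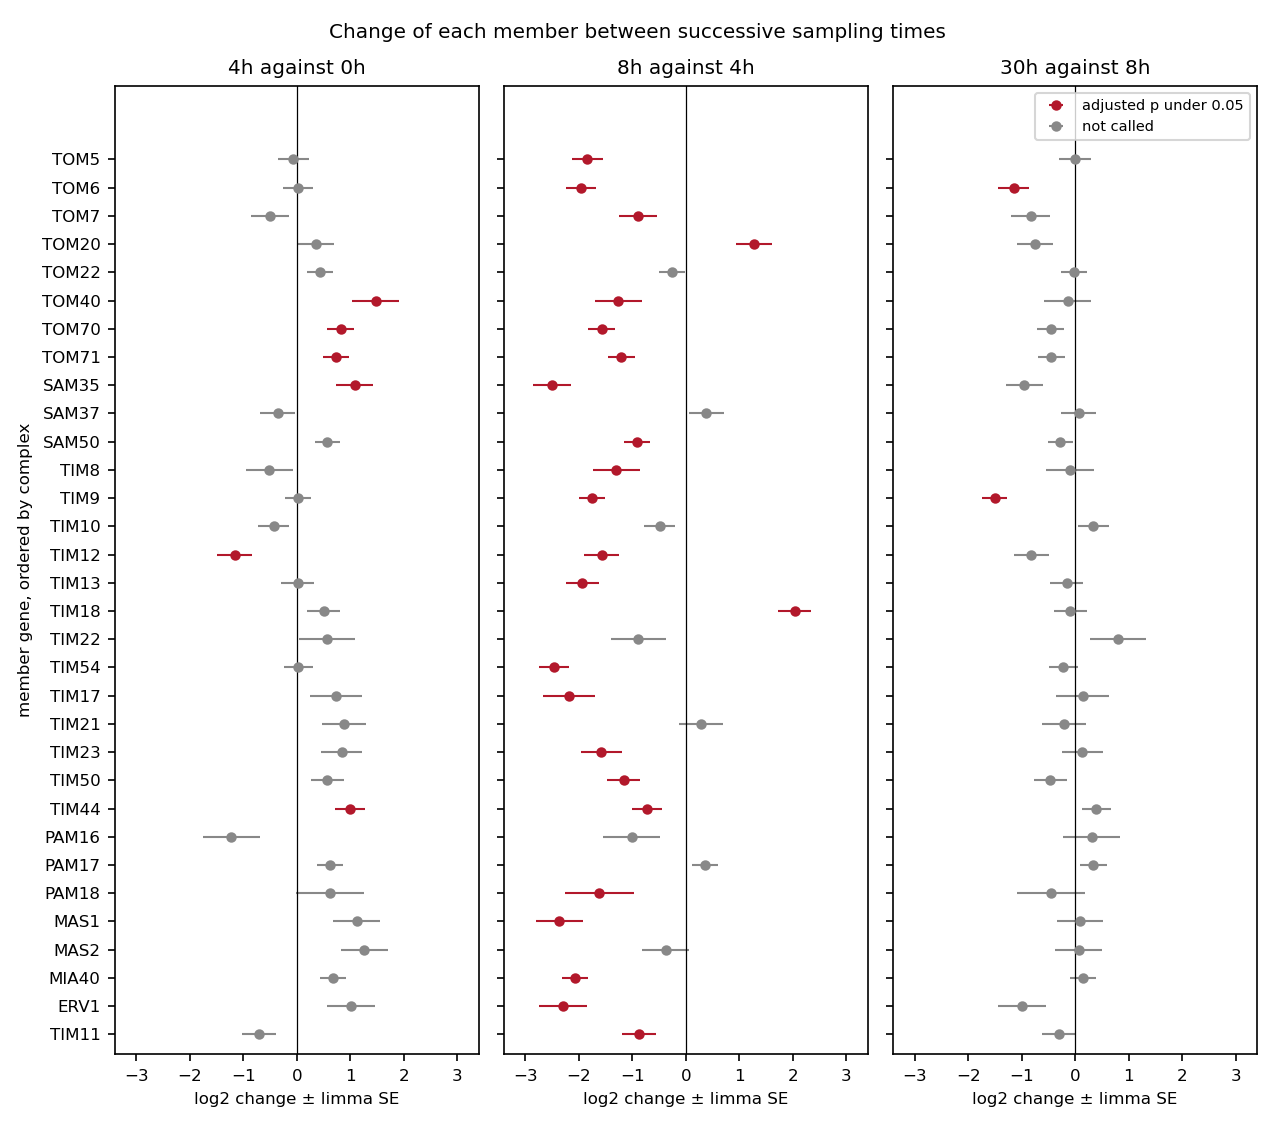
Points are the log2 change of each member in 3 successive comparisons and bars the limma SE, red where the adjusted p was under 0.05. In the middle panel 22 members lie called to the left of 0 and TOM20 and TIM18 to the right, while few points are called in the outer panels.

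The SAM complex has 3 members here. SAM50 is itself a barrel protein and forms the core of the complex, SAM35 recognises the sorting signal of barrel precursors, and SAM37 helps release them. SAM35 had 75.4, 149 and 148 on the 0h arrays, 232, 277 and 244 on the 4h arrays, 39.1, 50.5 and 43.5 on the 8h arrays, and 27.2, 13.3 and 32.7 on the 30h arrays. The 4h arrays were the highest and the late arrays the lowest, with no overlap between early and late. SAM35 rose by 1.08 ± 0.35 at 4h against 0h (limma adjusted p = 0.0384), a call lost without 0h A or any 1 of the 4h arrays (adjusted p 0.0893 to 0.13), and changed by -2.50 ± 0.35 at 8h against 4h (limma adjusted p = 2.83e-05). SAM50 showed the same order at a smaller scale, with 63.8, 62.3 and 69.1 on the 0h arrays, 93.9, 93.1 and 103 on the 4h arrays, 55.6, 55.9 and 42.9 on the 8h arrays, and 53.9, 38.9 and 36.0 on the 30h arrays. It fell by 0.92 ± 0.24 at 8h against 4h (limma adjusted p = 0.00426) and by 0.62 ± 0.24 at 30h against 0h (limma adjusted p = 0.036), the second lost without 0h B, 0h C, 30h B, 30h C or any 1 of the 4h arrays (adjusted p 0.0581 to 0.11) and with arrays centred on their median (-0.34, adjusted p = 0.186). SAM37 was called in no comparison in the main fit, which took all 12 arrays after quantile normalisation. It was called higher at 30h against 0h without 0h A, at 0.52 (adjusted p = 0.0496). Without normalisation it was called lower at 4h against 0h, at -1.63 (adjusted p = 0.0046), and at 30h against 0h, at -1.87 (adjusted p = 0.000649). All genes shifted by -1.17 and -1.86 in those 2 comparisons. SAM37 also differed at 8h against 4h without a call. Its 8h arrays, 107 to 159.6, all lay above its 4h arrays, 89.0 to 101, with a change of 0.38 (adjusted p = 0.318).

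The small TIM proteins are soluble chaperones of the intermembrane space. TIM9 and TIM10 form a ring that escorts carrier and barrel precursors, TIM8 and TIM13 form a similar ring with fewer clients, and TIM12 attaches the chaperones to the TIM22 complex. Of these 5 genes, 4 fell at 8h against 4h and the same number at 30h against 0h, beside 33.9% and 33.3% of all tested genes. The exception both times was TIM10, which was also called lower in both when arrays were centred on their median. Beside these falls stand the values of 0h A, on which all 5 of these genes were highest among the 0h arrays, by 0.47 to 1.77 log2 units over the mean of 0h B and 0h C.

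TIM9 stepped down at 8h and again at 30h, with 273, 161 and 184 on the 0h arrays, 191, 202 and 216 on the 4h arrays, 59.1, 58.2 and 62.8 on the 8h arrays, and 23.4, 21.6 and 18.8 on the 30h arrays. The replicates of each late time lay close together, and the 30h arrays were all below the 8h arrays. TIM9 changed by 0.02 ± 0.24 at 4h against 0h, which was not called, by -1.76 ± 0.24 at 8h against 4h (limma adjusted p = 2.47e-05), by -1.50 ± 0.24 at 30h against 8h (limma adjusted p = 0.00227) and by -3.24 ± 0.24 at 30h against 0h (limma adjusted p = 1.16e-07). The fall between 8h and 30h was not lost in any fit that left out 1 array, but with arrays centred on their median it was -1.11 and missed the threshold (adjusted p = 0.0535).

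TIM10, the partner of TIM9, had 1179, 626 and 663 on the 0h arrays, 536, 591 and 628 on the 4h arrays, 328, 552 and 395 on the 8h arrays, and 635, 409.5 and 558 on the 30h arrays. On this scale early and late arrays overlapped, and TIM10 was called in no comparison. Its change at 30h against 0h was -0.59 ± 0.28 (limma adjusted p = 0.0856). This depended on the scaling. With arrays centred on their median TIM10 was called lower at 8h against 4h, at -1.75 (adjusted p = 0.00225), and again at 30h against 0h, at -2.15 (adjusted p = 0.000564). Its deposited signals were 95.1 to 259 on the late arrays and 953 to 5038 on the early ones, without overlap. TIM12 fell over the whole propagation. Its signals were 361, 174 and 163 on the 0h arrays, 103, 96.3 and 92.3 on the 4h arrays, 29.8, 38.6 and 30.1 on the 8h arrays, and 14.6, 16.4 and 26.4 on the 30h arrays, so that each time lay below the one before it without overlap. TIM12 was the only member called lower at 4h against 0h, at -1.16 ± 0.33 (limma adjusted p = 0.0208), a call lost without 0h A (-0.78) or any 1 of the 4h arrays (adjusted p 0.0501 to 0.0729). It changed by -1.57 ± 0.33 at 8h against 4h (limma adjusted p = 0.00082) and by -3.55 ± 0.33 at 30h against 0h (limma adjusted p = 6.64e-07).

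TIM13 ranged over 32.2 to 79.7 on the late arrays and 187 to 270.0 on the early ones and fell by 1.94 at 8h against 4h. TIM8 ranged over 22.3 to 51.1 late and 83.4 to 289 early, with its highest value again on 0h A, and 2 of its 3 arrays at 8h were above background. Its change of -1.30 at 8h against 4h was no longer called when 4h B or 8h C was left out (adjusted p 0.0525 to 0.0986) and with arrays centred on their median (adjusted p = 0.0709).

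**Figure D3:**
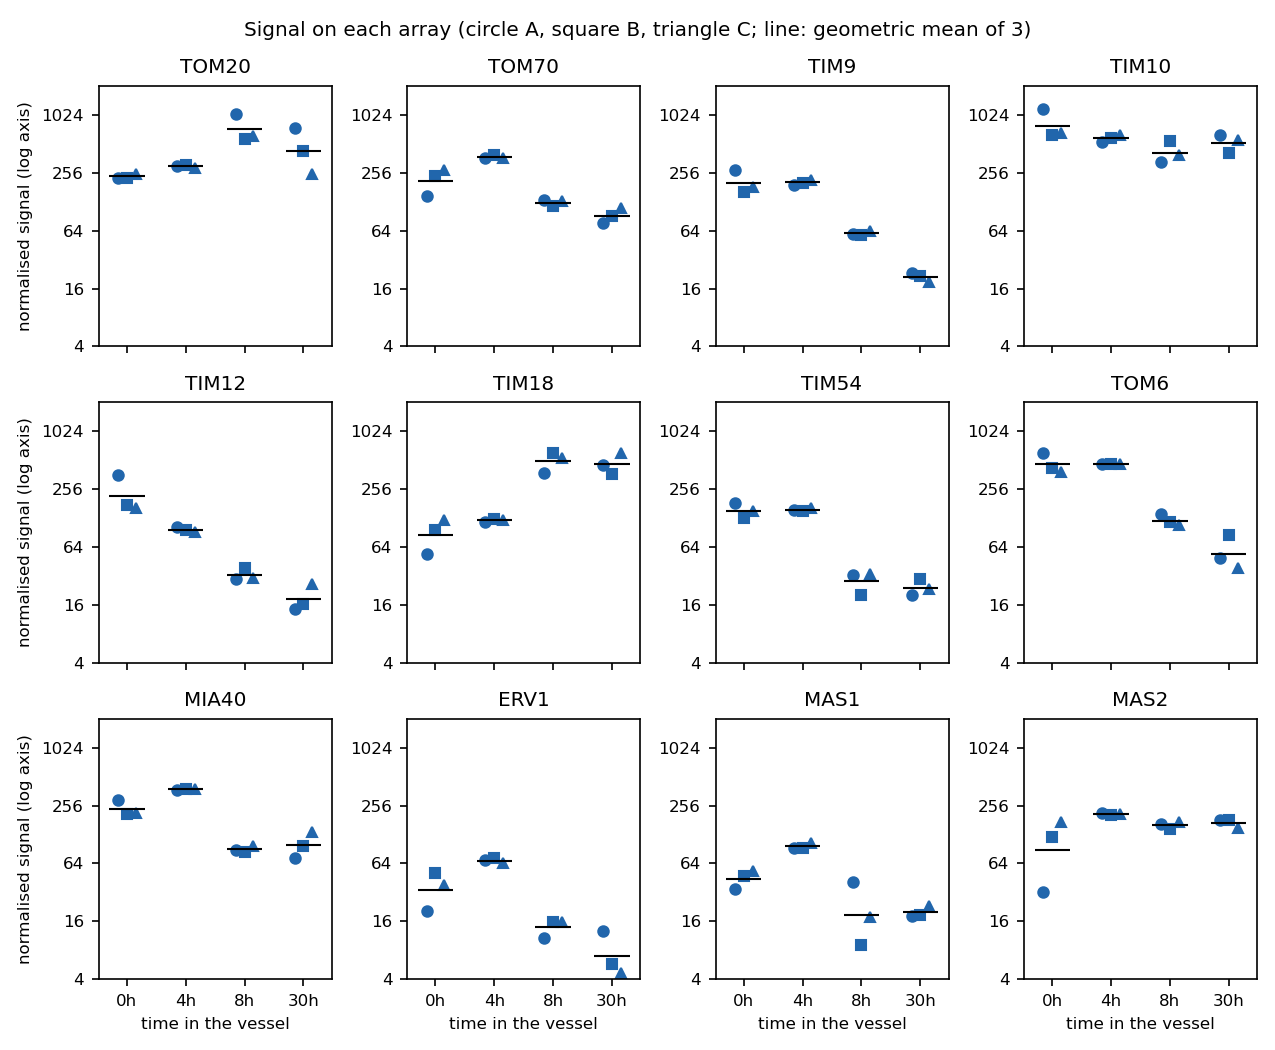
Normalised signal on each of the 12 arrays for 12 members, on a log axis, with a line at the geometric mean of each time. TIM9, TIM12 and TOM6 step down at 8h and again at 30h, TIM18 and TOM20 step up at 8h, and the late and early arrays of TIM10 and MAS2 overlap on this scale.

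The TIM22 complex inserts carrier proteins into the inner membrane, and its 3 members differed at 8h against 4h: 1 rose, 1 fell and 1 was not called. Of all tested genes, 30.7% rose and 33.9% fell there. TIM22, the channel itself, was dim, with 12.4, 46.3 and 32.8 on the 0h arrays, 40.9, 44.3 and 33.5 on the 4h arrays, 25.7, 37.1 and 9.97 on the 8h arrays, and 29.2, 45.1 and 38.4 on the 30h arrays. It was below background on 0h A and on 1 array at 8h and was called in no comparison. TIM54, a subunit that exposes a large domain to the intermembrane space, had 186, 127 and 152 on the 0h arrays, 154, 152 and 163 on the 4h arrays, 33.0, 20.2 and 33.9 on the 8h arrays, and 20.2, 29.8 and 23.7 on the 30h arrays. Its change at 4h against 0h, 0.03 ± 0.27, was not called. It then fell by 2.47 ± 0.27 at 8h against 4h (limma adjusted p = 3.88e-06). This fall was called under all 19 alternatives.

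TIM18, a membrane subunit that resembles the succinate dehydrogenase subunit SDH4, was the one member with every late array above every early one. It had 53.8, 96.2 and 122 on the 0h arrays, 117, 125 and 124 on the 4h arrays, 374, 609.8 and 546 on the 8h arrays, and 457, 369 and 609.8 on the 30h arrays. TIM18 rose by 2.03 ± 0.31 at 8h against 4h (limma adjusted p = 6.19e-05) and by 2.45 ± 0.31 at 30h against 0h (limma adjusted p = 1.18e-05). Unlike the rise of TOM20, this one was still called with arrays centred on their median, at 1.34 and 1.84 (adjusted p 0.00216 and 0.000227), and in all fits that left out 1 array. On the deposited scale without normalisation, where the median of all tested genes itself moved by -1.28 and -1.86 in these comparisons, the changes of TIM18 were 0.20 and 0.06 and not called.

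The TIM23 complex imports proteins with a presequence. TIM23 and TIM17 are its membrane core, TIM50 is the receptor that takes precursors over from the TOM complex, and TIM21 couples the complex to the respiratory chain. No member was called at 4h against 0h, where 11.8% of all tested genes were called each way. At 8h against 4h, 3 of the 4 fell, beside 33.9% of all tested genes. TIM23 had 79.5, 190.1 and 171 on the 0h arrays, 245, 261 and 232 on the 4h arrays, 113, 88.2 and 55.1 on the 8h arrays, and 127, 106 and 54.4 on the 30h arrays. Its 4h arrays were above all others, while 0h A lay among the late arrays. TIM23 fell by 1.59 ± 0.38 at 8h against 4h (limma adjusted p = 0.00251), and its change at 30h against 0h, -0.61 ± 0.38, was not called (adjusted p = 0.178). Without 0h A that change was -0.99 and was called (adjusted p = 0.0189).

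TIM17 had 57.2, 242 and 265 on the 0h arrays, 269, 236 and 262 on the 4h arrays, 71.8, 42.4 and 58.5 on the 8h arrays, and 100.0, 41.1 and 58.1 on the 30h arrays. Again 0h A lay among the late arrays. Its change was -2.18 ± 0.49 at 8h against 4h (limma adjusted p = 0.00144) and -1.31 ± 0.49 at 30h against 0h (limma adjusted p = 0.0297). The second was -1.99 without 0h A and was lost without 0h B, 0h C, 30h B or 30h C (adjusted p 0.076 to 0.135). TIM50 fell by 1.17 at 8h against 4h, its signals running over 25.4 to 45.1 on the late arrays and 39.8 to 91.8 on the early ones. TIM21 was not called in any comparison in the main fit, with 108 to 312 late and 53.7 to 194 early. Its change at 30h against 0h was 0.95 ± 0.41 (limma adjusted p = 0.0579). That change was called when 0h B, 0h C or 8h A was left out (0.97 to 1.16, adjusted p 0.0214 to 0.0457).

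The import motor sits on the matrix side of the TIM23 complex and drives translocation with the mitochondrial Hsp70, Ssc1. TIM44 is its scaffold, PAM18 a J protein that stimulates Ssc1, PAM16 the J-like partner that restrains PAM18, and PAM17 a membrane subunit that helps join the motor to the channel. TIM44 had 88.5, 178 and 139.7 on the 0h arrays, 257, 265 and 258 on the 4h arrays, 139, 133 and 206 on the 8h arrays, and 176, 202 and 246 on the 30h arrays. The 4h arrays were highest and 0h A lowest. TIM44 rose by 0.997 ± 0.28 at 4h against 0h (limma adjusted p = 0.0196), lost when any 1 of the 4h arrays was left out (adjusted p 0.0649 to 0.0702), and fell by 0.73 ± 0.28 at 8h against 4h (limma adjusted p = 0.032), lost without 8h A, 8h B or any 1 of the 4h arrays (adjusted p 0.075 to 0.107) and -1.29 with arrays centred on their median. Its rise of 0.66 at 30h against 0h (limma adjusted p = 0.0487) was 0.38 without 0h A, 0.30 and not called with arrays centred on their median, and was lost in 9 of the 12 fits that left out 1 array: 0h A, 0h C, any 4h array, 8h A, 8h B, 30h B or 30h C (adjusted p 0.0528 to 0.152).

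PAM17 had its lowest signals at 0h, with 103, 91.4 and 91.7 on the 0h arrays, 157, 138 and 143 on the 4h arrays, 149, 194 and 226 on the 8h arrays, and 211, 191 and 327 on the 30h arrays. No successive step was called, but 30h stood 1.31 ± 0.25 above 0h (limma adjusted p = 0.000394), with no overlap of arrays. With arrays centred on their median the rise was 0.98 (adjusted p = 0.00139), while without normalisation the value was -0.79 beside a shift of -1.86 over all genes. PAM16 moved the other way over the same span, at -1.93 ± 0.54 (limma adjusted p = 0.0061), with 25.0 to 34.0 at 30h and 103 to 127 at 0h. The call was lost without both 0h A and 0h C (adjusted p = 0.071). On 8h A it was below background, at 6.94, against 50.2 and 37.4 on the other 8h arrays. The change of PAM16 at 4h against 0h, -1.22 ± 0.54, was not called (limma adjusted p = 0.114). It was called without 8h A, at -1.25 (adjusted p = 0.00357), and with arrays centred on their median, at -1.46 (adjusted p = 0.0157). The same held after 16 was added, with only the 2 times in the fit, and without normalisation. PAM18 was dim and uneven, at 12.7, 109 and 33.8 on the 0h arrays, and its change of -1.62 at 8h against 4h (limma adjusted p = 0.0378) was lost as a call when any 1 of the 4h or 8h arrays was left out (adjusted p 0.0577 to 0.0924) and with arrays centred on their median (-0.92, adjusted p = 0.211). At 30h against 0h PAM18 was at -1.44 and not called, but was called without 0h A, at -2.18 (adjusted p = 0.00288), and without 30h C, at -1.93 (adjusted p = 0.0315).

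Presequences are removed in the matrix by the processing peptidase, a dimer of MAS1, the catalytic beta subunit, and MAS2, the alpha subunit that binds the substrate. MAS1 had 34.7, 47.2 and 53.2 on the 0h arrays, 91.9, 92.3 and 104 on the 4h arrays, 40.5, 9.03 and 17.6 on the 8h arrays, and 18.2, 18.5 and 22.9 on the 30h arrays. The 4h arrays were above all others, and only 1 of the 8h arrays was above background. At 4h against 0h MAS1 was at 1.12 ± 0.43 and not called (limma adjusted p = 0.077). That change was called with arrays centred on their median, at 1.29 (adjusted p = 0.013), and after 16 was added to every signal. It was also called with only the 2 times in the fit, and without 8h A or 8h B (adjusted p 0.0129 to 0.0305). MAS1 fell by 2.37 ± 0.43 at 8h against 4h (limma adjusted p = 0.000296), called under all 19 alternatives, and by 1.17 ± 0.43 at 30h against 0h (limma adjusted p = 0.0293), lost without 0h B, 0h C, 30h A or 30h B (adjusted p 0.0679 to 0.0953) and at -0.47 with arrays centred on their median. MAS2 had 32.3, 120.3 and 172 on the 0h arrays, 216, 203 and 209.6 on the 4h arrays, 166, 147 and 171 on the 8h arrays, and 181, 179.6 and 149 on the 30h arrays. Apart from 0h A and 0h B these values lay within a narrow band, and MAS2 was called in no comparison in the main fit. Its change at 4h against 0h was 1.26 ± 0.44 (limma adjusted p = 0.0524). It was called with arrays centred on their median, at 1.5 (adjusted p = 0.0355), and after 16 was added to every signal, at 1.06 (adjusted p = 0.0423). It was also called without 0h B or 0h C, at 1.46 and 1.72 (adjusted p 0.0399 and 0.0109). Leaving out either of these arrays also gave a call at 30h against 0h (1.16 and 1.41, adjusted p 0.0467 and 0.00837). At 8h against 4h MAS2 was called lower with only those 2 times in the fit, at -0.389 (adjusted p = 0.0355). Without normalisation it was called there too, at -1.96 (adjusted p = 0.0168).

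The MIA pathway consists of MIA40, the receptor that forms disulfide bonds in incoming small proteins, the small TIM proteins among them, and ERV1, the sulfhydryl oxidase that recharges it. Both genes fell. MIA40 had 291, 211 and 216 on the 0h arrays, 371, 381 and 381 on the 4h arrays, 87.8, 84.4 and 96.6 on the 8h arrays, and 73.3, 96.7 and 137 on the 30h arrays. The gap between early and late arrays held for every array. The change of MIA40 at 4h against 0h, 0.67 ± 0.25, was not called (limma adjusted p = 0.0648). It was called with arrays centred on their median, at 0.98 (adjusted p = 0.00582), and with only the 2 times in the fit. It was also called without 0h A, at 0.81 (adjusted p = 0.0196), and without 30h A or 30h C. MIA40 changed by -2.08 ± 0.25 at 8h against 4h (limma adjusted p = 7.6e-06) and by -1.26 ± 0.25 at 30h against 0h (limma adjusted p = 0.000529). ERV1 had 20.5, 50.3 and 38.3 on the 0h arrays, 69.3, 72.3 and 64.1 on the 4h arrays, 10.8, 15.8 and 15.6 on the 8h arrays, and 12.5, 5.79 and 4.59 on the 30h arrays. At each late time 1 of the 3 arrays was above background, so the size of its fall, -2.30 ± 0.45 at 8h against 4h (limma adjusted p = 0.000493), is limited by the background. It was -1.50 after 16 was added to every signal. At 30h against 0h ERV1 was at -2.30, or -1.08 with arrays centred on their median. At 4h against 0h it was at 1.01 and not called (limma adjusted p = 0.118). That change was called with arrays centred on their median, at 1.14 (adjusted p = 0.0419), and after 16 was added, at 0.735 (adjusted p = 0.0283).

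TIM11 carries a TIM symbol but is known as subunit e of the ATP synthase, which joins 2 synthase complexes into a dimer, and not as an import component. It had 931, 541 and 613 on the 0h arrays, 393, 425 and 427 on the 4h arrays, 191, 253 and 239 on the 8h arrays, and 319.9, 159 and 123 on the 30h arrays. Its late arrays were all below its early arrays. TIM11 fell by 0.88 ± 0.32 at 8h against 4h (limma adjusted p = 0.0272), lost without 8h A or any 1 of the 4h arrays (adjusted p 0.0549 to 0.0878), and by 1.88 ± 0.32 at 30h against 0h (limma adjusted p = 0.000164). With arrays centred on their median these changes were -1.79 and -2.87.

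A ratio of 2 genes on the same array does not contain the array's overall brightness. On the deposited values it still contains the array's range of signals, which differed between early and late arrays. For 6 pairs of genes whose proteins work together, chosen after the values had been seen and therefore given without a test, the log2 ratio was set to 0 at its mean over the 12 arrays. TOM20 over TOM70 lay between 0.01 and 2.14 on the late arrays and between -1.53 and -0.52 on the early ones, a late minus early difference of 2.47. On the deposited values the difference was 1.91, with 0.0481 to 1.70 late and -1.37 to -0.0267 early. Neither scale had an overlap, but on the deposited one the gap was narrow. MAS1 over MAS2 differed by -2.05, or -1.13 on the deposited values, with no overlap after normalisation and an overlap before it. MAS1 was above background on 1 of the 3 arrays at 8h. ERV1, in a pair given below, was above it on 1 of 3 at each late time. The size of both ratios is therefore limited by the background. TIM9 over TIM10 was lower at 8h and lower again at 30h, with means of 0.76 ± 0.13 at 0h, 1.21 ± 0.03 at 4h, -0.06 ± 0.41 at 8h and -1.90 ± 0.34 at 30h (SD, n = 3 arrays a time). The late minus early difference of that pair was -1.96 after normalisation but -0.49 on the deposited values, where early and late arrays overlapped, so its size depended on the scaling. The other pairs overlapped between early and late arrays on both scales: TIM8 over TIM13 differed by 0.41, TIM23 over TIM17 by 0.65 and MIA40 over ERV1 by 0.63, and the last had the opposite sign, -0.79, on the deposited values.

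**Figure D4:**
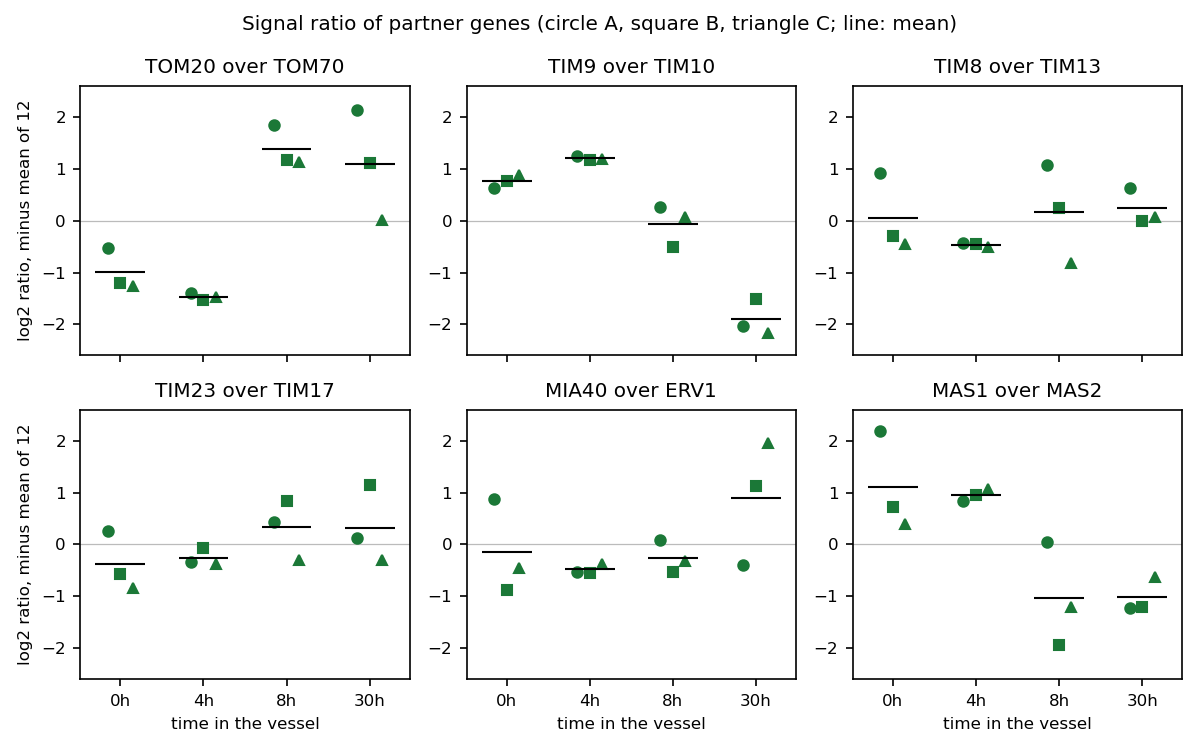
The log2 ratio of 2 partner genes on each array, minus the pair's mean over the 12 arrays, by time, with a line at the mean of each time. TOM20 over TOM70 is higher and MAS1 over MAS2 lower on all late arrays, TIM9 over TIM10 is lowest at 30h, and the other pairs overlap.

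The division between early and late arrays was also counted without a model. All 6 late arrays were below all 6 early arrays for 14 of the 32 members, where 22.6% of all tested genes showed this, and above them for 1 member, TIM18, where 22.2% of all tested genes did. The 14 were TOM5, TOM6, TOM7, TOM70, TIM8, TIM9, TIM11, TIM12, TIM13, TIM54, SAM35, SAM50, MIA40 and ERV1. They include 4 of the 5 small TIM genes and both MIA genes. The count rested in part on 0h A. When 0h A was left out, 20 members had all late arrays below all early ones, against 29.2% of all tested genes, and 2 had them above, against 26.8%. The 6 members added below were TOM71, TIM17, TIM23, TIM50, PAM18 and MAS1, and the 1 added above was SAM37.

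The array 0h A bears on every comparison with 0h. On it 4 members were more than 1 log2 unit above the mean of 0h B and 0h C: TIM8 by 1.77, TOM7 by 1.32, SAM37 by 1.31 and TIM12 by 1.10. Another 9 were more than 1 log2 unit below: PAM18 at -2.25, MAS2 and TIM17 at -2.15, TOM40 at -2.004, TIM22 at -1.65, TIM21 at -1.29, TIM23 at -1.18, ERV1 at -1.10 and TIM18 at -1.01. By contrast, 0h B and 0h C were more than 1 log2 unit apart for 1 member, PAM18. Over all tested genes 986 were higher and 946 lower on 0h A by this measure, and 160 differed between 0h B and 0h C. The part of RNA integrity in these differences was not tested.

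**Figure D5:**
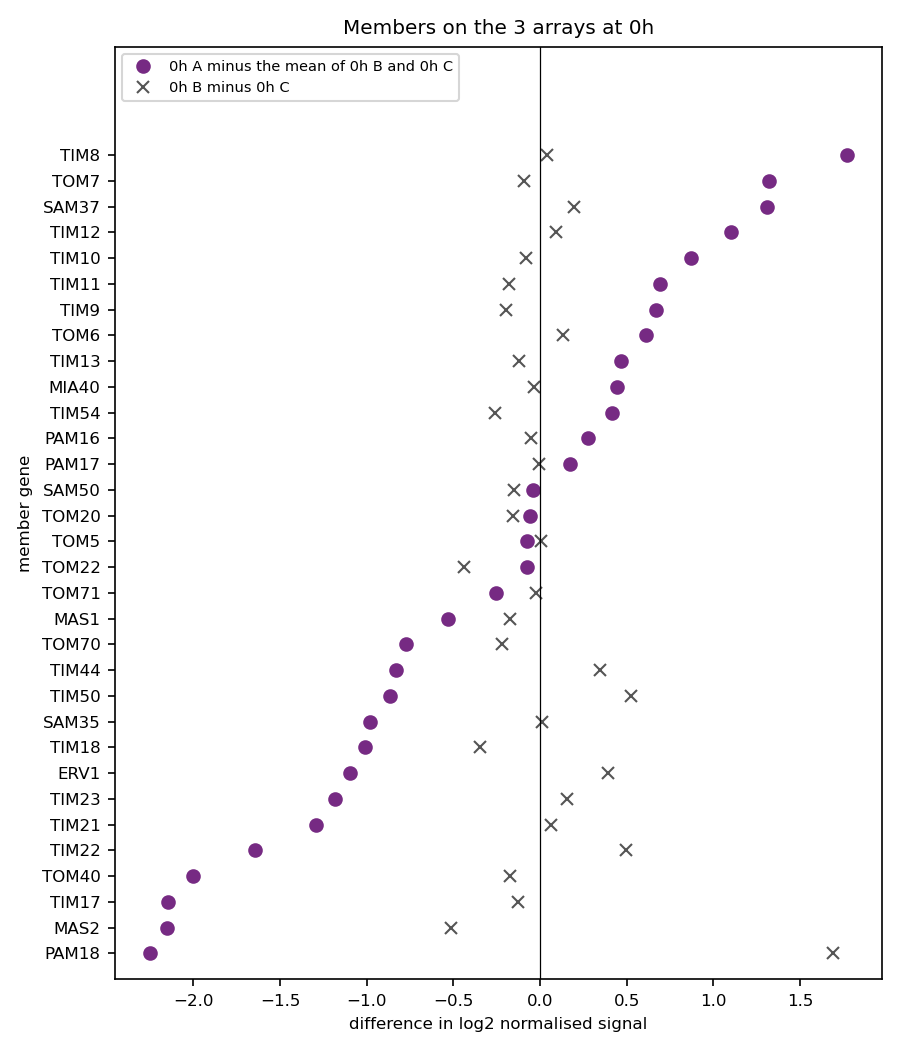
Circles give the log2 normalised signal on 0h A minus the mean of 0h B and 0h C, and crosses 0h B minus 0h C, for each member. Circles spread from -2.25 to 1.77, with TIM8 highest and PAM18 lowest, while the crosses stay within 1 log2 unit of 0 except for PAM18 at 1.69.

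A second list held 27 other genes: partners of the import machinery, and mitochondrial genes of membrane insertion, protein folding and proteolysis. It is wider than import itself. Of the 27, 18 fell and 1 rose at 8h against 4h, beside 33.9% and 30.7% of all tested genes, with a median log2 change of -1.22. SSC1, the motor Hsp70, had 132, 277 and 291 on the 0h arrays, 422, 458 and 467 on the 4h arrays, 138, 84.3 and 127 on the 8h arrays, and 129, 109.8 and 94.4 on the 30h arrays. It rose by 1.03 ± 0.31 at 4h against 0h and changed by -1.97 ± 0.31 at 8h against 4h. Without 0h A the rise was 0.64 and no longer called (adjusted p = 0.0501). HSP60, the chaperonin that folds imported proteins, rose by 1.42 ± 0.25 and changed by -2.67 ± 0.25 in the same comparisons, and its cochaperonin HSP10 by 0.28, not called, and -0.81. MGE1, the exchange factor of SSC1, was not called at 4h (0.06) and changed by -1.10 at 8h against 4h. Among the falls at 8h against 4h were those of MGR2, a subunit of the TIM23 complex, at -3.52 ± 0.46, of ZIM17, which keeps SSC1 soluble, at -3.32 ± 0.32, and of OM14, an outer membrane protein, at -2.99 ± 0.26. MGR2 and ZIM17 were above background on 1 of the 3 arrays at 8h, so the size of their falls is limited by the background. OM14 was above it on all arrays. The single rise was MDJ2, a J protein paralogous to PAM18, at 1.85 ± 0.70. It was below background on all 3 arrays at 0h, above it on 2 of the 3 at 4h, and at least 5.49-fold higher at 30h than at 0h. At 4h against 0h, 4 of the 27 rose and none fell, beside 11.8% of all tested genes each way. PCP1, a rhomboid protease, and CYM1, a peptidase that degrades cleaved presequences, rose by 1.47 and 1.39. Without 0h A these rises were 0.92 (adjusted p = 0.0248) and 0.99, the second no longer called (adjusted p = 0.0668), and that of HSP60 was 1.10 (adjusted p = 0.00099). At 30h against 8h, only MDJ1, a further J partner of SSC1, was called, at 1.5 ± 0.34, beside 0.909% of all genes called higher and 2.73% lower. MDJ1 was above background on 2 of the 3 arrays at 8h.

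Genes of the respiratory chain and ATP synthase, and of the mitochondrial ribosome, were counted in the same way. At 8h against 4h, where 33.9% of all tested genes fell and 30.7% rose, 31 of 37 respiratory and synthase genes fell and none rose, with a median of -1.85, and 37 of 67 mitochondrial ribosomal protein genes fell and 6 rose, with a median of -1.06. At 30h against 8h, 0.909% of all tested genes rose and 2.73% fell. The respiratory and synthase list had a median of 0.31 there, with 2 genes called higher and none lower. The mitochondrial ribosomal list had a median of -0.09 with none called. The import members had 2 called lower, and 0 with arrays centred on their median, where 0.781% of all tested genes fell. Whether the import members differ from these lists was not tested.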

How the data were processed

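Total RNA of strain CB11 was measured on 12 single-colour arrays, 3 per time. The values are signal intensity on a linear scale, 1 per probe set, as deposited; per the submitters' processing notes, GCOS 5.0 and MAS5 were the software, with no parameters given. Arrays differed in overall scale although the design had taken them as scaled, so log2 signals were quantile-normalised over the tested genes. Of 10928 probe sets, 5685 carried 1 S. cerevisiae gene in a platform annotation that can be old. Genes whose mean was under the 95th percentile of S. pombe probe sets (signal 7.745) were left out. CB11 belongs to a hybrid species, and a signal sums whatever bound the S. cerevisiae probes.

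Tests used R 4.3.3 and limma 3.58.1 (lmFit, contrasts, eBayes with trend), 1 coefficient per time over 12 arrays, 8 residual degrees of freedom, two-sided, with Benjamini-Hochberg adjustment over 5503 genes and calls at 0.05. The steps were tested on simulated data. The members, lists and comparisons were chosen with earlier results of these data known. Values on every array are given for 17 members named regardless of their values and for the largest called changes without overlap, up to 3 each way per comparison; other members are given by ranges. The number of arrays limits the precision. No sequences are shown, because no sequence table was used here.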

Additional observations from a re-analysis of the deposited data

How the results depend on the processing

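The counts of members called and each member's changes were recomputed under 19 alternatives, of which the fit without both 0h A and 0h C was chosen after seeing the data. So was leaving out 0h A for the count of genes whose early and late arrays do not overlap and for the second list of 27 genes. Counts over the other lists were not recomputed. For all tested genes, the calls that held under every alternative were not counted. Nor were the calls of any difference under the alternatives. The members' numbers for these 2 items therefore stand without a share to set them against. The fall of 22 members at 8h against 4h (17 to 28) and of 19 at 30h against 0h (16 to 27), and the 26 with any difference (23 to 30, no value being possible with only 2 times in the fit), kept within 1.5 times; 16 of 24 and 14 of 23 single calls in these comparisons held under all 19, against 0 of 6 at 4h against 0h and likewise 0 of 2 at 30h against 8h. With arrays centred on their median, the members' counts moved to 13 higher and 2 lower at 4h against 0h, beside 18.6% and 16.5% of all tested genes. They moved to 1 higher at 8h against 4h (31.6% of all genes), 0 lower at 30h against 8h (0.781%) and 2 higher at 30h against 0h (31%). Without normalisation the members' counts were 0 higher and 9 lower at 4h against 0h, beside 45 and 2609 of all 5503 tested genes. They were 0 higher at 8h against 4h (603 of all genes), 0 lower at 30h against 8h (2) and 0 higher at 30h against 0h (354). With 16 added to each signal, 8 rose and 2 fell at 4h against 0h and 1 fell at 30h against 8h. With only the 2 times compared in the fit, 2 fell at 4h against 0h, 1 fell at 30h against 8h and 2 rose at 30h against 0h. Without both 0h A and 0h C, 1 array was left at 0h, so no separate count is given. The 5 rises of the main fit at 4h against 0h were then 0.525 to 0.848, and TIM12 was at -0.811. At 30h against 0h the rises of TOM20 and TIM44 were then 0.89 and 0.204. Leaving out each array in turn gave 0 to 6 members higher and 0 to 2 lower at 4h against 0h, 1 to 2 lower at 30h against 8h and 2 to 5 higher at 30h against 0h. Over all 5503 genes these counts were 320 to 783, 353 to 767, 99 to 313 and 1563 to 1859. With 16 added, 729 of all genes rose and 625 fell at 4h against 0h, and 131 fell at 30h against 8h. With only the 2 times compared, 657 of all genes fell at 4h against 0h, 124 fell at 30h against 8h and 1504 rose at 30h against 0h. At 30h against 8h, 0 members were called higher by limma under every alternative. The cause of these moves was not tested.

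Without normalisation the direction turned for the members' median at 4h against 0h (-0.568) and at 30h against 8h (0.462), for TOM20 at 8h against 4h (-1.06) and again at 30h against 0h (-1.72), and at 30h against 0h for TOM22 (-2.24), TOM40 (-2.08), TIM44 (-1.47), PAM17 (-0.79) and SAM37 (-1.87). It turned too at 4h against 0h for TOM70 (-0.0199), TOM71 (-0.26), TIM9 (-1.13) and TIM54 (-1.16), and at 8h against 4h for TIM21 (-1.37) and PAM17 (-1.15), all beside the shift of all genes given above. Over all tested genes, 647 rose and 648 fell at 4h against 0h, against 1025 and 907 with arrays centred and 45 and 2609 without normalisation.

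The labels do not say whether the letters A, B and C pair the arrays. Same-letter deviations from the means of 2 times correlated at -0.21 to 0.237, and different-letter deviations at -0.309 to 0.26. For 8h with 30h the same-letter values were 0.188, -0.00695 and 0.237 for A, B and C, and the different-letter values -0.309 to 0.133. Whether the letters pair the arrays was not tested. A fit with the replicate block called 5 members higher and 1 lower at 4h against 0h, 2 and 22 at 8h against 4h, 0 and 2 at 30h against 8h and 5 and 20 at 30h against 0h, and 27 for any difference. Over all 5503 genes that fit called 618 higher and 639 lower at 4h against 0h, and 1675 and 1867 at 8h against 4h. It called 46 and 143 of them at 30h against 8h, and 1715 and 1822 at 30h against 0h. Signals near background limit the size of the changes of TIM8, TIM22, PAM16, PAM18, MAS1, ERV1, MGR2, ZIM17, MDJ1 and MDJ2. TIM9 and TIM12 were above background on all 3 arrays at 30h. On 30h A, however, their deposited signals were 20.2 and 15.2, against a background of 12.6.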
